A study of Arabidopsis thaliana with 4 samples.

Results

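The stage 3 library, made from Arabidopsis thaliana siliques of 11 to 15 days post-anthesis, was compared with the stage 2 library, made from siliques of 6 to 10 days. A silique is the pod that encloses the seeds, and anthesis is the opening of the flower. Both libraries came from the accession Col-0, and all 4 libraries of the series shared its growth conditions of 22 °C with 16 h of light and 8 h of dark. These ages are those of the labels' stage field. The growth text of the same labels conflicts with it on the compared libraries, since it uses the name stage 2 both for 6 to 10 and for 11 to 15 days, names no stage 3 and gives 6 to 10 days for stage 4. The stage field was used. Neither a mutant nor a treatment is named in the labels. The other 2 libraries, stage 1 (0 to 5 days) and stage 4 (16 to 20 days), are given only beside single genes and for the pollen marker sum and the suberin share. Each stage had 1 library, so the differences below are without a replicate check and without p-values. How many plants or siliques went into a library is not given in the sources used here, and whole siliques mix pod wall, seed coat, endosperm and embryo. The values were FPKM, sequenced fragments scaled to transcript length and to library size, with 1 value for each of 29971 loci. A locus was compared when its FPKM was above 0 in both libraries and at least 10 in the higher one, which held for 11162 loci or 37.2%. A locus was called higher or lower in stage 3 when log2(FPKM + 1) differed by at least 1. A locus low in stage 2 was compared only where stage 3 reached the limit, so counts over compared loci are a description. The added 1 makes these differences smaller than the true log2 fold for genes of low FPKM. In bulk samples, fewer cells of a type and less RNA per cell cannot be told apart.

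The ages on either side of the comparison are known as the period in which the Arabidopsis embryo leaves pattern formation and cell division and begins to fill. In filling, embryo cells deposit albumins and globulins in protein storage vacuoles and oil in lipid droplets coated with oleosins, and later acquire tolerance to drying. The program is known to be set by the regulators LEC1, FUS3, ABI3 and LEC2 together with bZIP factors and abscisic acid. The RY element and the abscisic acid response element (ABRE) are short promoter motifs known from seed genes, bound in vitro by B3 domain proteins such as ABI3 and FUS3 and by bZIP proteins respectively.

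Of the 11162 loci, 1734 were called higher in stage 3 (15.5%) and 1149 lower (10.3%), while 8279 (74.2%) were neither. Counts within the gene lists below are to be read beside these shares. The median difference over all compared loci was 0.09, and the middle of the distribution was narrow, with 25th and 75th percentiles of -0.40 and 0.61. The 5th and 95th percentiles were -1.69 and 2.41. At least 8-fold on this scale, 377 loci were higher and 219 lower, and at least 32-fold, 85 and 43. Higher loci made up 60.1% of those called. That share depended on how the libraries were put on a common scale, since it was 69.4% when all loci were scaled to the same FPKM sum (2090 higher and 922 lower) and 35.3% when loci of 300 bases or more were scaled to the same FPKM sum (1170 and 2148). The median of all loci moved to 0.26 and to -0.35 under these 2 scalings. Very short loci enter only the first of these sums, and AT2G01021, of 102 bases, held 63.1% of the FPKM sum of stage 2 and 45.0% of that of stage 3.

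**Figure D1:**
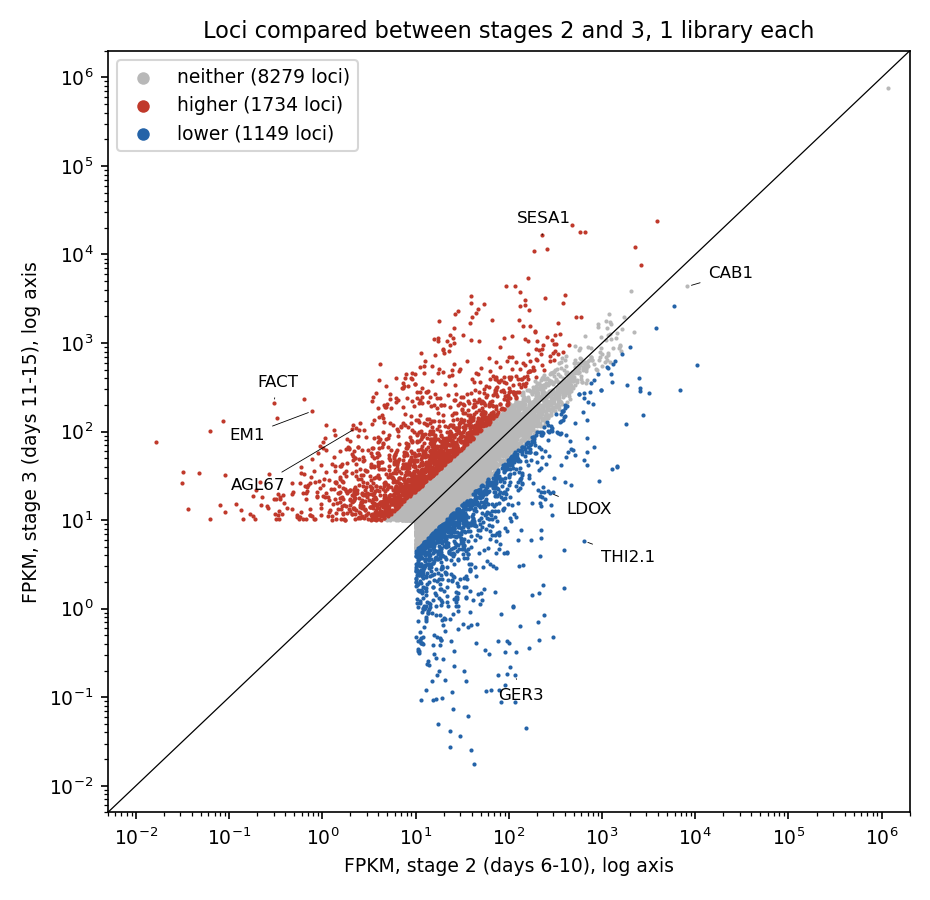
FPKM of the 11162 compared loci in stage 2 (horizontal) and stage 3 (vertical), both on log axes, 1 point per locus, with the diagonal marking equal values. The 1734 higher loci reach far above the diagonal, as FACT and EM1 do, while the 1149 lower loci reach below it, as GER3 and THI2.1 do.

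Markers listed for the tissues of the fruit were read in both libraries. The summed FPKM of 4 silique markers was 231 in stage 2 and 168 in stage 3, so both libraries carried them. The 5 embryo markers summed to 109 and 149, the 5 endosperm markers to 94.9 and 73.6, and the 5 seed coat markers to 658 and 555. The 4 markers of the green pod wall summed to 9891 and 4343, and 3 markers of lignified pod tissue summed to 54.9 and 22.4. Pollen markers, at 401 in stage 1, were low in both libraries (14.0 and 6.21). None of the 11 entries of the pollen list reached FPKM 10 in either, although the list includes WOX14, which is not a pollen marker. The sum for embryo was thus higher in stage 3 and those for silique, endosperm, seed coat, green pod wall and lignified tissue lower. The embryo rise was mostly that of FUS3 (22.1 and 112 FPKM), a maturation regulator, and WOX2 was slightly higher. The embryo markers LEC1 (78.6 and 31.6 FPKM), WOX8 and ESR1 were lower. The lower endosperm sum was mostly that of PHE1 (19.3 and 0.736 FPKM), while RGE1, MYB118, ALE1 and AGL62 differed little. These sums thus do not measure the amount of a tissue, and their part in the results on single gene lists was not tested. The 12 reference genes were all within the 2-fold limit, with a median of 0.15, or -0.25 when the longer loci were scaled to the same sum.

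Storage protein genes formed the list with the largest median difference. Of 13 loci on the list, 9 could be compared and all 9 were higher, by a median of 5.56. The other 4, the 12S globulin genes CRA1, CRU2 and CRU3 and the 2S albumin gene SESA3, stood between 160.4 and 1070.1 FPKM in stage 2 and are listed at 0 in stages 3 and 4. An exact 0 for an abundant gene can be a failed estimate in a file without counts, so no direction is read from them. SESA1, a 2S albumin gene (chromosome 4, 13607329 to 13608031), measured 228 FPKM in stage 2 against 16562 FPKM in stage 3, a 72.5-fold difference. Its neighbours on chromosome 4, SESA2 (chromosome 4, 13609341 to 13610075) and SESA4 (chromosome 4, 13613596 to 13614283), were at 473 and 21789 FPKM and at 185 and 10984 FPKM, and SESA4 is listed at 0 in stage 4. These are near-identical neighbours whose reads the authors' counting could split, so the value of each single copy is uncertain. The vicilin-like globulin gene PAP85 was at 40.3 and 1953 FPKM, and the cupin genes AT1G03890 and AT2G28490 were at 25.9 and 1478 FPKM and at 32.01 and 1228 FPKM. Over the 9 loci the log2 differences ran from 3.42 for the cupin gene AT4G36700 to 6.30, the upper one being the joint value of a locus that holds SESA5 and another gene. The list took 0.568% of the summed FPKM of the longer loci in stage 2 and 6.22% in stage 3. The 4 members listed at 0 in stage 3 count in the stage 2 share, so these shares do not cover the same genes.

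Genes listed with the protein storage vacuole, which include a ferritin beside enzymes and channels of the vacuole, moved with the storage proteins but not uniformly. Of 7 compared loci, 6 were higher and 1 lower (median 3.21). The tonoplast water channel gene TIP3;1 measured 17.3 FPKM in stage 2 against 1059 FPKM in stage 3. BETA-VPE, which encodes the seed vacuolar processing enzyme that cleaves storage protein precursors, was at 10.4 and 239 FPKM. VIT1, the vacuolar iron importer of the embryo, and FER2, a seed ferritin in a shared locus, were at 3.95 and 44.8 FPKM and at 8.13 and 238 FPKM. The gene that was lower, DELTA-VPE, encodes a processing enzyme known from cell death in the inner seed coat. It was at 1863 and 338 FPKM in a locus of 2 genes.

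Lipid droplet genes were higher in 15 of 17 compared cases and lower in none, with a median of 4.82, and 1 more locus is listed at 0 in one library. OLEO1, a major seed oleosin (chromosome 4, 12900430 to 12901577), measured 256 FPKM in stage 2 against 11565 FPKM in stage 3, a 45.2-fold difference. OLEO2 and OLEO4 were at 118 and 4397 FPKM and at 93.7 and 4434 FPKM, and the caleosin gene ATS1, also called CLO1, was at 25.1 and 1139 FPKM. HSD5, a steroleosin, went from 8.35 to 331 FPKM. OLEO3 differed less, at 189 and 1358 FPKM, and had been the second most abundant oleosin in stage 2. The 2 compared members within the limit were AT2G34380 (difference 0.81) and AT1G67360 (0.61). The lipid droplet list held 0.158% of the FPKM sum over the longer loci in stage 2 and 3.16% in stage 3.

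The enzymes that make the oil did not show such differences. In plastid fatty acid synthesis, 1 of 25 compared loci was higher, 1 lower and 23 neither, and their median of -0.02 lay beside 0.09 for all loci. The pyruvate kinase subunit gene PKP-BETA1 was at 166 and 215 FPKM and the carboxyl carrier gene CAC1 at 87.4 and 70.3 FPKM. The exceptions both encode acyl carrier proteins, with ACP5 higher (51.2 and 145 FPKM) and ACP4 lower (179 and 79.1 FPKM). WRI1, the activator of this pathway, was at 42.1 and 38.8 FPKM, within the limit. In oil assembly and fatty acid modification, 5 of 16 were higher and none lower (median 0.61), against 15.5% and 10.3% of all loci. The higher ones were KCS18, also called FAE1, the elongase of seed very long chain fatty acids (10.2 and 135 FPKM), the desaturase gene FAD3 (104 and 389 FPKM), the acyltransferase genes TAG1, also called DGAT1 (18.3 and 56.5 FPKM), and LPLAT1 (24.99 and 75.7 FPKM), and the phosphatase gene PAH1 (8.10 and 19.5 FPKM). The desaturase gene FAD2 was already at 911 FPKM in stage 2 and reached 1500.3 FPKM (difference 0.72).

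**Figure D2:**
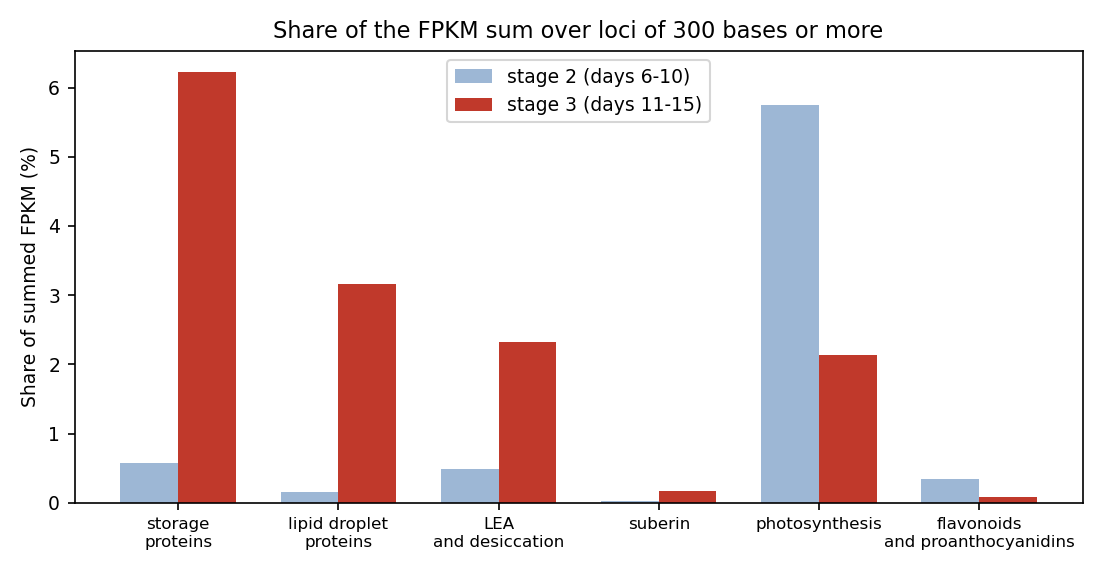
Share of the FPKM sum over loci of 300 bases or more, in percent, that 6 gene lists held in stage 2 and in stage 3, 1 library each. The storage list went from 0.568% to 6.22%, while the photosynthesis list went from 5.75% to 2.14%. The stage 2 share of the storage list includes its 4 members that are listed at 0 in stage 3.

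Genes of late embryogenesis abundant (LEA) proteins and other desiccation genes were higher in 23 of 28 compared cases and lower in 2 (median 5.14). Another 7 of the 35 loci did not reach FPKM 10 in either library. RAB18, a dehydrin, measured 54.0 FPKM in stage 2 against 2731 FPKM in stage 3, a 50.6-fold difference, and the LEA genes AT3G15670 and LEA7 were at 26.6 and 2134 FPKM and at 23.4 and 956 FPKM. PER1, a seed peroxiredoxin, went from 19.5 to 858 FPKM. Genes known from the last, dry phase were still low or moderate in stage 3. EM1 (chromosome 3, 19214748 to 19215831) was at 0.0769, 0.780, 170.4 and 1799 FPKM in stages 1 to 4. GEA6, also called EM6, was at 0.0798, 0.0629, 7.54 and 1073 FPKM in stages 1 to 4, and M17 was at 0.107, 0.588, 4.05 and 236 FPKM in stages 1 to 4, and these 2 stayed below the FPKM limit here. The 2 lower members, ERD10 (362 and 133 FPKM) and COR47 (402 and 198 FPKM), are dehydrins known from cold response, and 1 more dehydrin, ERD14, was within the limit at 868 and 515 FPKM. The dehydrins thus differed in direction, with LTI30 (36.2 and 174 FPKM) and XERO1 (16.1 and 264 FPKM) among the higher ones.

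Promoters of strongly higher genes held the RY core and the ABRE core more often than others. The 300 bases from 250 before to 50 after the start of each single protein-coding locus were read from the RefSeq TAIR10.1 genome, at the starts the deposited files give, for 23147 promoters. The RY core was searched as CATGCA and the ABRE core as ACGTG, each on both strands. These letters do not contain each other, but a CACGTG palindrome carries the ABRE core on both strands and counts as a pair. Of all promoters, 9.22% held the RY core, 27.7% the ABRE core and 2.80% both, and of the 10534 that were compared 7.95%, 31.7% and 2.74%. Among loci at least 2-fold higher the shares were 14.8%, 43.9% and 7.14% of 1639. Among loci at least 8-fold higher the shares were 27.1%, 53.2% and 16.7% of 365, and among those at least 32-fold higher 45.1%, 69.5% and 28.0% of 82. For loci at least 2-fold lower the shares were 11.0%, 30.2% and 2.91% of 1099, and for those at least 8-fold lower 10.9%, 29.9% and 2.84% of 211. Loci called neither had 6.08%, 29.4% and 1.80% of 7796. The RY core was thus more frequent among lower loci, too, than among loci called neither. The lists differed in which core they held. Of 12 storage promoters 10 held the RY core and 8 the ABRE core, of 18 lipid droplet promoters 13 held each, and of 35 LEA promoters 10 held the RY core and 26 the ABRE core. Of 17 suberin promoters, 2 held the RY core and 6 the ABRE core. Lists that were mostly lower or within the limit held the ABRE core too, with 10 of 19 flavonoid promoters and 17 of 32 photosynthesis promoters (52.6% and 53.1%), and the RY core in 1 and 5. An ABRE core in this window was thus as frequent in these lists as among loci at least 8-fold higher. A match is a description of letters and not a site of binding.

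**Figure D3:**
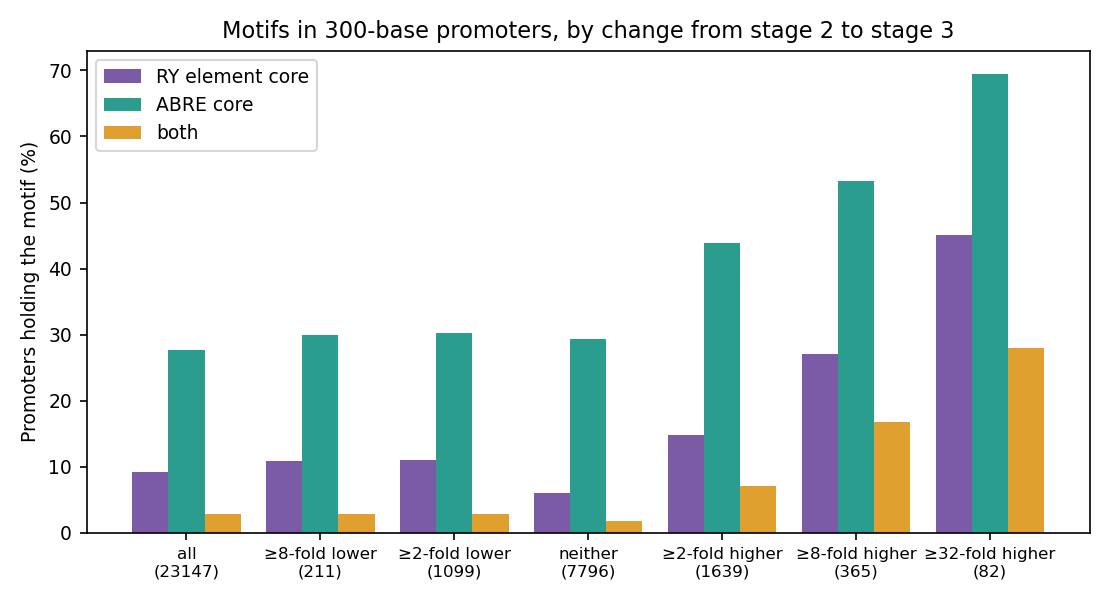
Share of 300-base promoters, in percent, that hold the RY core, the ABRE core or both, by class of difference between stage 3 and stage 2 (number of promoters in brackets). The shares rise with the size of the increase, to 45.1%, 69.5% and 28.0% for loci at least 32-fold higher. They are 11.0%, 30.2% and 2.91% for loci at least 2-fold lower, and 6.08%, 29.4% and 1.80% for loci called neither.

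The 250 bases before the start are printed for 7 genes, to show how the cores sit in single promoters, with both cores in capitals. Coordinates are in TAIR10.1, and sequences are from RefSeq and run 5′ to 3′ on the strand of the gene. The albumin and oleosin promoters combine RY cores with a CACGTG within about 100 bases of the start, the LEA promoters hold ABRE cores only, FACT holds 2 overlapping RY cores far from its start, and LDOX holds neither. FACT and LDOX are genes of the seed coat, higher and lower in stage 3 respectively. They do not stand for their lists, since 2 of 17 suberin promoters held the RY core and 10 of 19 flavonoid promoters the ABRE core.
SESA1, chr4:13607079-13607328, plus strand: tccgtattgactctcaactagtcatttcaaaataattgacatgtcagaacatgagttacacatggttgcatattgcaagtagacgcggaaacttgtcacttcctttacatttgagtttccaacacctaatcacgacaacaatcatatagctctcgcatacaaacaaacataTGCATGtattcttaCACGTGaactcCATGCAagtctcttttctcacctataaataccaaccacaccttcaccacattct
SESA2, chr4:13609091-13609340, plus strand: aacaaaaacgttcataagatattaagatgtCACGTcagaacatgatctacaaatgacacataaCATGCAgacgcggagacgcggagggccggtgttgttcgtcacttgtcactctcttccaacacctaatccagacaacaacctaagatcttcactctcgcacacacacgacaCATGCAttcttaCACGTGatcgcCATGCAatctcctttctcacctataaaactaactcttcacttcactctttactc
OLEO1, chr4:12900180-12900429, plus strand: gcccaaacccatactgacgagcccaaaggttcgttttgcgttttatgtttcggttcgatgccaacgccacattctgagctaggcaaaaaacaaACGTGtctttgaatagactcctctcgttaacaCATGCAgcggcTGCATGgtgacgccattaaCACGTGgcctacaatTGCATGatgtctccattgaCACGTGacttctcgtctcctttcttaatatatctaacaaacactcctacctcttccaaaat
RAB18, chr5:26519243-26519492, minus strand: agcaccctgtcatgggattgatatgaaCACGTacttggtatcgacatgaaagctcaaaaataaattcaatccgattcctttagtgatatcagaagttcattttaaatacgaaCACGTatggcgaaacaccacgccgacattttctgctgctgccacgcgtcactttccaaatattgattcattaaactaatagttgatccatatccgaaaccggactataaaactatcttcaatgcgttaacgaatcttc
EM1, chr3:19214498-19214747, plus strand: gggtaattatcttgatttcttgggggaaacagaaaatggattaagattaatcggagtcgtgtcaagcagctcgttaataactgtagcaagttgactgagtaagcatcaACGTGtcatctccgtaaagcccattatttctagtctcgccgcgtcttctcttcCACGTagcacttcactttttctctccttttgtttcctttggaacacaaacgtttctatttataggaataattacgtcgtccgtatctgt
FACT, chr5:25449231-25449480, plus strand: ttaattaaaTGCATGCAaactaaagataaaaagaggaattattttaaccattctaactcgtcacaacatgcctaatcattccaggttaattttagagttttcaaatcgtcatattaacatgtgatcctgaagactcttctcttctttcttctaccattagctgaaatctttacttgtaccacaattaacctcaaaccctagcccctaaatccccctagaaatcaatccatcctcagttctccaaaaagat
LDOX, chr4:12006210-12006459, minus strand: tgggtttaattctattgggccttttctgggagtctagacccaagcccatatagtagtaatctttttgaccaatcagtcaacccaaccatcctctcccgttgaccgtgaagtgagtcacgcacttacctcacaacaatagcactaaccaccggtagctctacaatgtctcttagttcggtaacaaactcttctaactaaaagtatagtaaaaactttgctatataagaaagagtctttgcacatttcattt
In SESA1 and SESA2 the RY core nearest the start begins 54 bases before it in both genes, and the CACGTG begins 65 bases before it.

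The list of seed maturation regulators had a smaller median than the storage, lipid droplet and LEA lists, with 8 of 18 compared loci higher and 1 lower. Its median was 0.83, or 1.51 with a minimum of FPKM 25 and 0.40 when scaled on the longer loci. FUS3 went from 22.1 to 112 FPKM, ABI3 from 7.82 to 74.1 FPKM and DOG1 from 1.97 to 79.3 FPKM. The bZIP factor genes EEL, DPBF2 (bZIP67) and ABI5 were at 22.1 and 260.4 FPKM, at 5.30 and 47.9 FPKM and at 6.83 and 29.8 FPKM. SOM, a CCCH zinc finger repressor of seed germination, was at 1.02 and 75.6 FPKM, the largest difference of the list at 5.25. AGL15, a MADS factor of the embryo, was at 14.4 and 42.9 FPKM. LEC1 was the lower one at 78.6 and 31.6 FPKM, and LEC2, under the FPKM limit, was at 9.07 and 6.85 FPKM. The B3 repressor genes HSI2 and HSL1 of the VAL family were within the limit at 15.9 and 28.4 FPKM and at 11.2 and 12.5 FPKM.

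**Figure D4:**
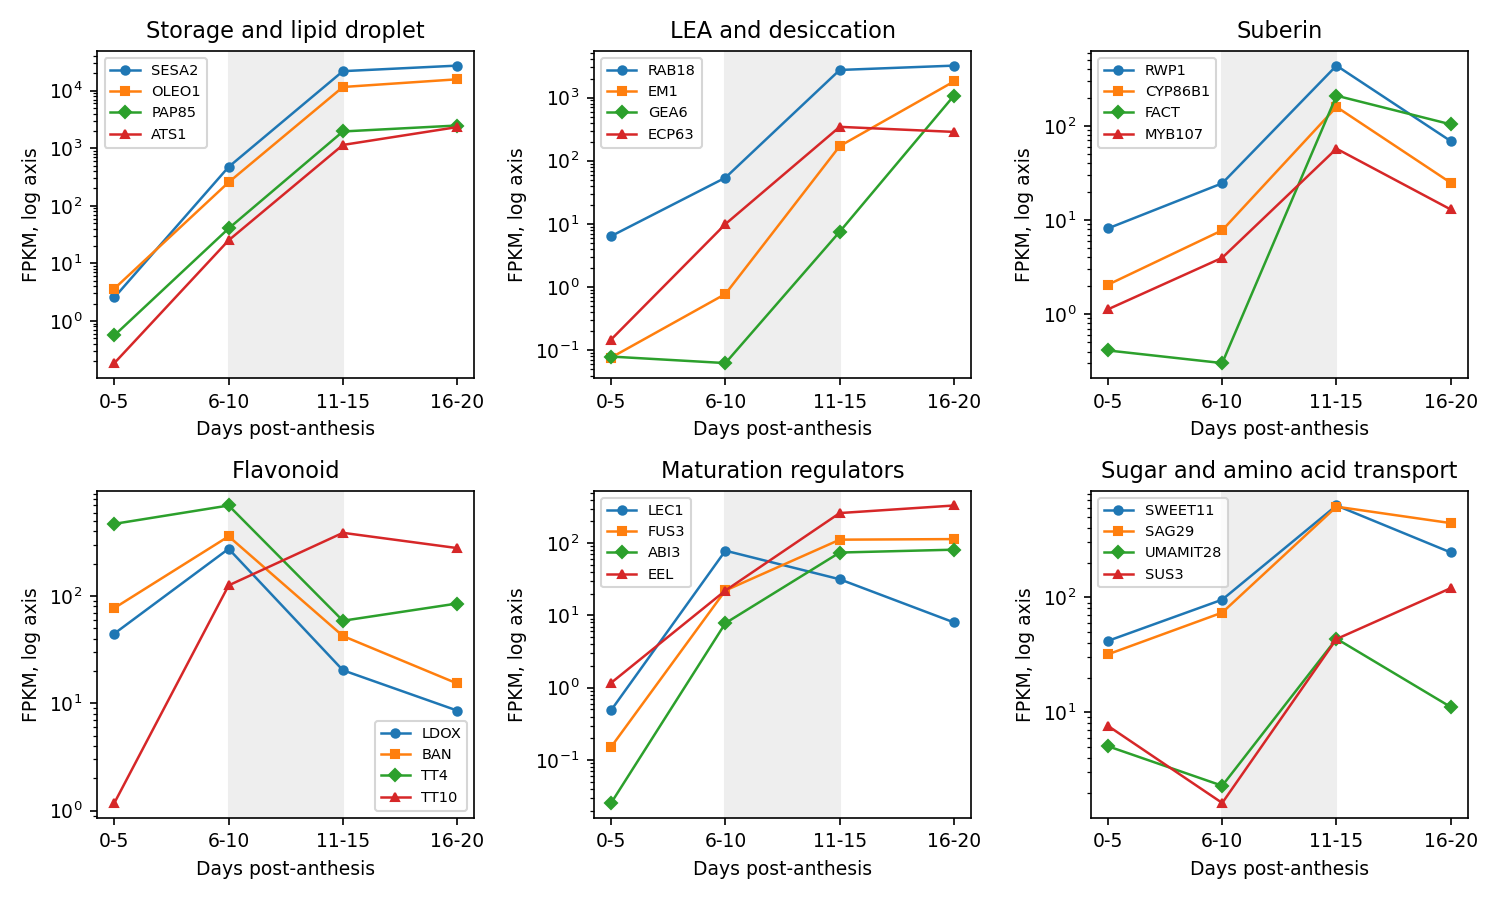
FPKM on a log axis in the 4 stages, by days post-anthesis, for 4 genes of each of 6 groups, 1 library per stage, with the compared interval shaded. Suberin genes are highest at 11-15 days, LEC1 is lower at 11-15 than at 6-10 days while FUS3, ABI3 and EEL are higher, and the flavonoid genes are lower except TT10.

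Genes that pattern the embryo were called about as rarely as all loci. Of 42 loci, 27 did not reach FPKM 10, and of the 15 compared 3 were higher and none lower, against 15.5% and 10.3% of all loci (median 0.36, but -0.15 when scaled on the longer loci and -0.06 with a minimum of FPKM 1). The higher ones were AIL5, an AP2 factor of the PLETHORA group (5.95 and 46.1 FPKM), CUC1, which sets the boundary between the cotyledons (4.85 and 17.5 FPKM), and the receptor kinase gene RPK1 (9.67 and 21.9 FPKM). Epidermal and polarity genes were within the limit, such as ATML1 (68.2 and 39.0 FPKM), PHB (24.4 and 23.3 FPKM), PHV (34.0 and 32.8 FPKM) and the auxin response factor gene MP (13.3 and 17.4 FPKM). Among those below FPKM 10, values pointed both ways. The auxin efflux carrier genes PIN7 and PIN4 were at 9.82 and 2.02 FPKM and at 6.82 and 1.66 FPKM, the meristem gene STM at 7.51 and 2.47 FPKM and the suspensor factor WOX8 at 7.90 and 3.801 FPKM. WOX2, its partner in the early proembryo, was at 0.641 and 2.09 FPKM and BBM at 1.72 and 3.38 FPKM.

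Endosperm genes split. Of 9 compared loci 3 were lower, none higher and 6 neither. The median was -0.23, but -0.59 with a minimum of FPKM 1 and 0.08 with a minimum of FPKM 25. The lower ones were the MADS gene PHE1 (19.3 and 0.736 FPKM), the imprinted homeobox gene FWA (12.9 and 0.730 FPKM) and the MADS gene AT4G36590 (13.3 and 0.237 FPKM). PHE1 was at 17.7 FPKM again in stage 4, whereas FWA and AT4G36590 were at 0.280 and 0.249 FPKM. Other endosperm genes were within the limit, with RGE1, also called ZOU, at 24.4 and 20.7 FPKM, its partner ICE1 at 133 and 139 FPKM, the cuticle protease gene ALE1 at 18.1 and 17.6 FPKM and MYB118 at 26.9 and 28.9 FPKM. The sucrose carrier gene SUC5 of the endosperm was at 48.1 and 37.8 FPKM. Of the 18 loci of the list, 7 did not reach FPKM 10 and 2 are listed at 0 in one library. AGL62, a MADS gene of the early endosperm in a shared locus, did not reach the FPKM limit and stood at 6.16 and 5.64 FPKM. The others below the limit were lower, such as AGL38 (9.70 and 0.459 FPKM), CKX2 (9.23 and 3.82 FPKM) and AGL28 (2.90 and 0.0234 FPKM), except MEA (2.63 and 6.70 FPKM).

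In the seed coat, genes of pigment, mucilage and suberin did not share a direction. Flavonoid and proanthocyanidin genes were lower in 11 of 18 compared cases and higher in 1 (median -2.21). The entry enzyme TT4, chalcone synthase, went from 697 to 58.9 FPKM, and the later steps LDOX (275 and 20.3 FPKM) and GSTF12 (118 and 11.0 FPKM) were lower by similar amounts. TT12, the tonoplast transporter of proanthocyanidin precursors, was at 15.5 and 0.0927 FPKM. The MYB regulator TT2 was at 18.8 and 1.66 FPKM, while its partners TT8 (21.4 and 15.2 FPKM) and TTG1 (39.7 and 48.2 FPKM) were within the limit. The list took 0.338% of the FPKM sum over the longer loci in stage 2 and 0.0801% in stage 3.

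Of 26 compared mucilage genes 5 were higher, 2 lower and 19 neither (median 0.16), near the 15.5% and 10.3% of all loci. The rhamnose synthase gene MUM4 was at 113 and 98.4 FPKM, and BXL1, a bifunctional xylosidase and arabinosidase gene, was within the limit with a difference of 0.23. The 2 NAC genes known to act together on seed shape, NAC2 (NARS1) and NAM, were at 97.0 and 258 FPKM and at 39.8 and 115 FPKM. CESA9, a cellulose synthase of the seed coat, was at 2.57 and 11.9 FPKM. The lower ones were MYB61 (49.1 and 19.6 FPKM) and the peroxidase gene AT3G50990, PER36 (76.6 and 30.5 FPKM).

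Suberin genes, which build the water barrier of the outer seed coat and of roots, were higher in 12 of 15 compared cases and lower in none (median 3.55). FACT, the fatty alcohol caffeoyl-CoA acyltransferase gene (chromosome 5, 25449481 to 25451414), stood at 0.410, 0.301, 209 and 104 FPKM in stages 1 to 4. Its increase of 7.34 was the largest of any single protein-coding locus with 1 added to the FPKM. That rank depended on the added value. With 0.1 added FACT was at 9.03 and AT1G14940 at 9.48, and with 5 added FACT was at 5.34 and AT1G14950 at 6.28. RWP1, also called ASFT, which esterifies ferulic acid, was at 8.13, 24.5, 437 and 68.9 FPKM in stages 1 to 4. The fatty acid hydroxylase genes CYP86B1 and CYP86A1 were at 7.77 and 159 FPKM and at 1.64 and 27.9 FPKM, the acyltransferase gene GPAT5 at 1.36 and 27.04 FPKM and the fatty acyl reductase genes FAR1 and FAR4 at 5.39 and 62.5 FPKM and at 0.182 and 18.9 FPKM. The exporter genes ABCG20 and ABCG6 were at 11.0 and 129 FPKM and at 2.28 and 35.7 FPKM. Both MYB regulators of this pathway were among the higher genes. MYB107 stood at 1.12, 3.97, 57.2 and 12.9 FPKM in stages 1 to 4, and MYB9 at 0.485, 3.36, 57.8 and 5.55 FPKM in stages 1 to 4. In contrast to storage genes, most of these were lower again in stage 4, and the list held 0.0222%, 0.170% and 0.0432% of the FPKM sum over the longer loci in stages 2, 3 and 4.

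Genes that feed the seed were higher in 9 of 22 compared cases and lower in none (median 0.73), against 15.5% and 10.3% of all loci. The sugar exporter genes SWEET11 and SAG29 (SWEET15), which release sucrose from seed coat and endosperm, stood at 95.4 and 629 FPKM and at 73.6 and 614 FPKM, and their relative SWEET12 was within the limit at 45.0 and 83.7 FPKM. The UMAMIT amino acid exporters were among the higher genes, with UMAMIT28 at 2.29 and 43.6 FPKM, UMAMIT29 at 14.6 and 59.5 FPKM and SIAR1 (UMAMIT18) at 12.6 and 54.5 FPKM, while UMAMIT14 was at 41.1 and 28.3 FPKM. Of the sucrose synthases, which split sucrose in the receiving cell, SUS3 was at 1.62 and 43.3 FPKM and SUS6 at 1.49 and 13.5 FPKM. The amino acid importer genes AAP1 and AAP2 were within the limit, at 74.2 and 96.1 FPKM and at 58.7 and 80.4 FPKM. In the raffinose family, sugars known from dry seeds, 2 of 7 compared genes were higher and none lower, against 15.5% and 10.3% of all loci. The higher ones were the galactinol synthase genes GolS5 (0.533 and 11.0 FPKM) and GolS1 (7.69 and 27.04 FPKM).

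The starch list had 1 member higher and 3 lower of 16 (median -0.46), with 15.5% and 10.3% over all loci, and its difference from the import list was not tested. The lower ones were the chloroplast amylase gene CT-BMY (105 and 9.81 FPKM), the ADP-glucose pyrophosphorylase subunit gene APL3 (36.9 and 8.39 FPKM) and DPE1 (22.1 and 9.59 FPKM), and the higher one was the amylase gene BAM1 (105 and 412 FPKM). The small subunit ADG1 and the starch synthase GBSS1 were within the limit at 104 and 99.0 FPKM and at 19.1 and 14.7 FPKM.

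Photosynthesis genes, expressed in the green pod wall and in the green embryo, had 12 of 33 loci lower and none higher, with a median of -0.90 that became -1.31 when scaled on the longer loci. RBCS1A, the main Rubisco small subunit, went from 5913 to 2609 FPKM, and RCA, Rubisco activase, from 1266 to 362 FPKM. RBCS2B differed most, at 1275 and 38.2 FPKM, but it lies beside the near-identical RBCS1B (494 and 62.6 FPKM) and RBCS3B (2497 and 407 FPKM), so the split of reads among these 3 is uncertain. Light-harvesting and photosystem genes were closer to the limit, such as LHCB5 (1986 and 905 FPKM), PSAF (1639 and 759 FPKM) and LHCB4.1 (1429 and 1137 FPKM). Over the same interval, 11 of 15 compared genes of chlorophyll breakdown and senescence were higher and 1 lower (median 2.02). AT4G11910, the STAY-GREEN paralog SGR2, was at 4.61 and 128 FPKM, and NYC1, the chlorophyll b reductase, at 73.8 and 266 FPKM. The senescence NAC genes NAC6 (ORE1) and NAP were at 7.49 and 54.1 FPKM and at 3.65 and 17.9 FPKM, and the cytosolic glutamine synthetase gene GSR 1 (GLN1;1) at 89.9 and 413 FPKM. SAG12, the cysteine protease of senescence, went up from 4.48 to 99.4 FPKM, but had stood at 719 FPKM in stage 1. CLH1, a chlorophyllase, was the member that was lower, at 48.0 and 4.21 FPKM.

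Of 13 compared pod patterning genes 3 were higher and 1 lower (median -0.13), near the shares of all loci. The valve margin genes SHP1, IND and ALC were at 62.0 and 47.2 FPKM, at 12.8 and 11.6 FPKM and at 102 and 71.2 FPKM. The higher ones included both polygalacturonases of cell separation, ADPG1 (8.67 and 85.8 FPKM) and QRT2 (1.53 and 29.1 FPKM), and YAB3 (5.79 and 26.6 FPKM). GH9C2, a glucanase gene, was lower at 74.7 and 23.3 FPKM. Secondary wall genes divided, with 4 of 14 higher and 4 lower, against 15.5% and 10.3% of all loci. Lower were the cellulose synthase gene IRX3 (CESA7, 23.5 and 9.49 FPKM), the laccase gene IRX12 (LAC4, 24.9 and 9.94 FPKM), IRX6 (21.1 and 4.95 FPKM) and the xylan gene GUT2 (23.0 and 9.98 FPKM). Higher were FAH1 (12.6 and 59.6 FPKM) and OMT1 (66.4 and 199 FPKM) of phenylpropanoid metabolism, with FRA8 and MYB58.

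Cell division genes were lower in 9 of 22 compared cases and higher in 1 (median -0.82, or -1.26 when scaled on the longer loci and -0.12 with a minimum of FPKM 25). Another 17 of the 39 loci did not reach FPKM 10. Of the replication helicase, MCM2 (11.9 and 2.82 FPKM), MCM4 (14.0 and 3.64 FPKM), MCM5 (14.3 and 4.07 FPKM) and PRL (MCM7, 17.1 and 3.67 FPKM) were lower. Mitotic kinase genes CDKB1;1 (22.8 and 7.73 FPKM) and CDKB2;2 (14.1 and 6.08 FPKM) were lower too, while the constitutive kinase CDC2, also called CDKA, was at 41.9 and 34.1 FPKM. The higher gene was ICK1, a CDK inhibitor, at 9.29 and 25.1 FPKM. Cytokinesis genes were within the limit, with SYP111 at 134 and 79.9 FPKM and PLE at 8.51 and 10.2 FPKM. Outside the list, 11 of 22 compared loci with the RefSeq product name of histone superfamily protein were lower and 1 higher, against 10.3% and 15.5% of all loci. That name covers histone-fold proteins too, and 1 of the 11 is the maturation regulator LEC1. Histone copies are near-identical, so single values are uncertain, as for AT1G09200 (228 and 51.4 FPKM).

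Genes of 3 hormones were read. In the abscisic acid list, 8 of 14 compared were higher and none lower (median 1.15, or 0.74 when scaled on the longer loci). They held both synthesis and breakdown, with NCED6 at 6.47 and 47.1 FPKM, ABA1 at 20.0 and 48.9 FPKM and the 8'-hydroxylase gene CYP707A2 at 1.97 and 21.8 FPKM. AHG1, a seed PP2C phosphatase that restrains abscisic acid signalling, went from 0.759 to 30.3 FPKM, and ABI1 from 34.6 to 87.9 FPKM. In the gibberellin list, 3 of 12 were higher and 4 lower (median -0.08), against 15.5% and 10.3% of all loci. The synthesis gene GA20OX3 was higher at 111 and 279 FPKM and GA20OX2 lower at 17.5 and 6.44 FPKM. The inactivating enzymes GA2OX6 (18.1 and 1.69 FPKM) and GA2OX2 (12.6 and 3.67 FPKM) were lower. In the jasmonate list, 5 of 10 were lower and 2 higher (median -1.08). Lower were the synthesis genes LOX2 (268 and 97.7 FPKM), AOC3 (32.4 and 5.62 FPKM) and OPR3 (32.8 and 14.1 FPKM) and the vegetative storage proteins VSP1 (300.2 and 20.7 FPKM) and VSP2 (508 and 125.4 FPKM), whereas the repressors JAZ1 (95.4 and 206 FPKM) and JAZ10 (14.2 and 46.7 FPKM) were higher.

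**Figure D5:**
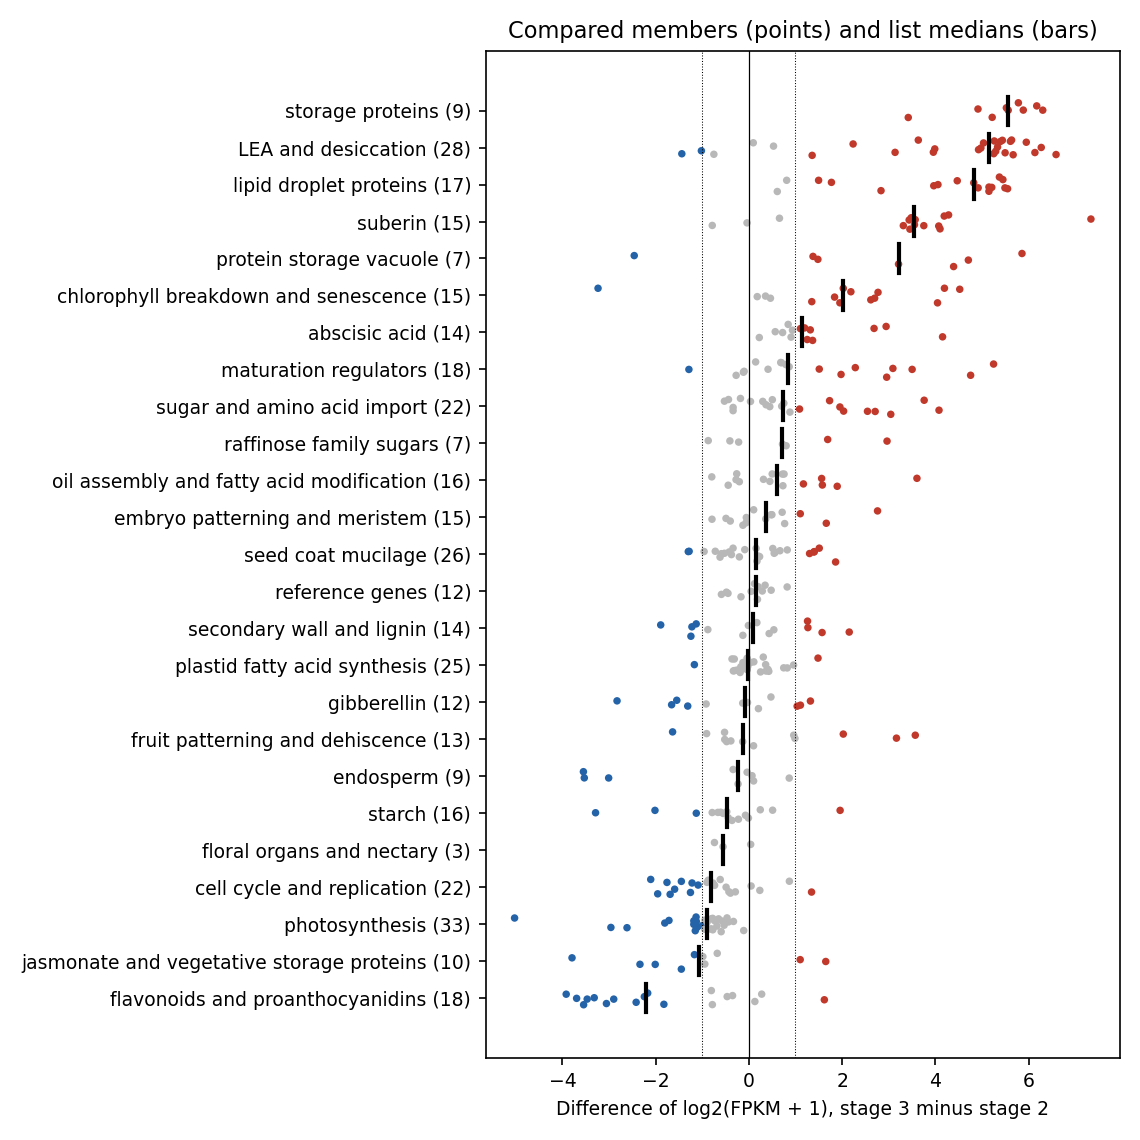
Difference of log2(FPKM + 1), stage 3 minus stage 2, for the compared members of 25 gene lists (red higher, blue lower, grey neither; number compared in brackets), with the list median as a bar and dotted lines at the 2-fold limit. Storage, LEA, lipid droplet and suberin members lie to the right and flavonoid members to the left, while plastid fatty acid synthesis has a median of -0.02 and the reference genes one of 0.15 (-0.44 and -0.25 when scaled on the longer loci).

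Outside the lists, the largest increases among single protein-coding loci held 3 adjacent genes of chromosome 1 whose RefSeq product is a polyketide cyclase and lipid transport protein. AT1G14930 was at 0.0618 and 102 FPKM, AT1G14940 at 0.0860 and 133 FPKM and AT1G14950 at 17.7 and 1754 FPKM. The lipid-transfer-like gene AT2G18370 stood at 0.642 and 234 FPKM, the glycine-rich protein gene AT2G05580 at 39.4 and 3418 FPKM and NSP2, a nitrile specifier protein of glucosinolate breakdown, at 0.0166 and 77.1 FPKM. AT3G56350, annotated as an iron or manganese superoxide dismutase, was at 4.03 and 381 FPKM. All of these went on to higher values in stage 4, with NSP2 at 957 FPKM there. The largest decreases included genes of small secreted peptides. SCRL10, an SCR-like peptide gene, went from 213 to 0.446 FPKM, and the gibberellin-regulated peptide gene AT2G30810 from 387 to 1.699 FPKM. Genes of vegetative and surface tissue were there as well, such as the ER body glucosidase gene BGLU18 (207 and 0.708 FPKM), the myrosinase-binding gene MBP2 (118 and 0.0876 FPKM), the cell wall gene PRP2 (236 and 0.848 FPKM) and CYP96A15, the mid-chain alkane hydroxylase of stem wax (103 and 0.219 FPKM). Of 30 genes named for the size of their difference, none had a log2 difference of size under 4.03 under any scaling or pseudocount tried. They were picked for that size in these same values, so this is a description and not a check.

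The most abundant transcripts also exchanged places. Among single protein-coding loci of 300 bases or more, the 10 highest of stage 2 held 7.25% of the FPKM sum over such loci and the 10 highest of stage 3 held 15.8%. GILT, a thiol reductase gene, led stage 2 at 10347 FPKM and stood at 565 FPKM in stage 3. The lipid transfer protein gene LTP6 went from 6802 to 291 FPKM and the glycine-rich protein gene GRP5 from 3176 to 273 FPKM. In stage 3 the lead was held by AT5G38160, a lipid-transfer-like gene, at 3879.5 and 23736 FPKM, followed by SESA2. AT1G62080 and AT1G62000, which RefSeq lists as uncharacterized, were at 649.9 and 17880.1 FPKM and at 583 and 17748 FPKM. AT5G38160 and AT5G38170 were in the top 10 of both libraries.

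Product names shared by at least 10 compared loci were screened after the values were seen, and the 4 names furthest in each direction are given as a description. Defensin-like proteins were lower in 9 of 14 cases, proteins named plant invertase/pectin methylesterase inhibitor superfamily protein in 10 of 16 and SAUR-like auxin-responsive proteins in 13 of 23, against 10.3% of all loci. Loci of these names were also higher, in 2, 2 and 6 cases. A second spelling of the inhibitor name, without its last word, covered 10 more loci, of which 3 were higher and 2 lower. The SAUR genes that were lower, a family known from cell expansion, included SAUR20 (11.2 and 0.545 FPKM) and AT4G38840 (66.7 and 6.84 FPKM). The inhibitor gene AT4G15750 was at 1456 and 40.7 FPKM. In the other direction, RmlC-like cupins were higher in 10 of 17 cases, VQ motif proteins in 7 of 10, MtN21 or EamA-like transporters in 11 of 18 and oxygenases of the 2-oxoglutarate type in 14 of 33, against 15.5% of all loci. The cupins overlap with the storage list and the transporters with the import list. Further UMAMIT genes among the transporters were UMAMIT25 (73.3 and 413 FPKM), UMAMIT20 (6.93 and 115 FPKM) and UMAMIT24 (1.05 and 29.5 FPKM).

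Words used for transcriptional regulators matched the product names of 516 compared loci, of which 116 were higher (22.5%) and 48 lower (9.30%), with a median of 0.26. Over all compared loci these were 15.5%, 10.3% and 0.09, so the lower share was near that of all loci. The match took any zinc finger name and missed names such as Integrase-type DNA-binding and Homeodomain-like superfamily protein. It is thus not a count of all regulators. Among the matched loci with large increases, SOM differed by 5.25, more than AGL67, a MADS factor, at 2.32 and 110.0 FPKM. The bHLH gene MEE8 was at 0.216 and 27.3 FPKM, and the NAC genes NAC058 and NAC038 at 0.475 and 26.3 FPKM and at 2.15 and 52.5 FPKM. MYB67 was at 0.0362 and 13.5 FPKM and, like NAC058, MYB9 and MYB107, was lower again in stage 4, with MYB67 at 3.41 FPKM and NAC058 at 7.32 FPKM there. At the other end stood the bHLH genes AT4G00870 (15.4 and 0.390 FPKM) and PRE1 (38.2 and 2.81 FPKM), the epidermal regulator MYB16 (21.7 and 1.76 FPKM) and the flavonol regulator MYB11 (13.4 and 0.897 FPKM). GATA29, a GATA factor, was at 0.0268, 40.7, 9.19 and 2.12 FPKM in stages 1 to 4.

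Some loci have no readable difference. Of the loci at FPKM 10 or more in stage 2, 49 are listed at 0 in stage 3, and 6 the other way. Besides the 4 storage genes, the first set holds peptide genes such as LCR38 (82.1 FPKM in stage 2) and LCR35 (73.0 FPKM). The second set includes SUVH6, a histone methyltransferase gene, which measured 11.8 FPKM in stage 3. At the limits of the rule, OEP7 (32.02 and 65.1 FPKM) was just inside the higher class and ARI7 (30.1 and 61.2 FPKM) just outside, and IAA16 (118 and 58.4 FPKM) was just inside the lower class and ABCG32 (50.01 and 24.5 FPKM) just outside. At the FPKM limit, AT3G25940 with 10.0005 FPKM in stage 2 was just inside and PIP2;8 with 9.999 FPKM in stage 3 just outside. The depth is not stated. For each library the depth was fitted that put most low values near a whole number of fragments. In this fit 180 bases were taken off each transcript length. At the fitted depth 71.1% of 218 low values in stage 2 and 74.8% of 230 in stage 3 lay within 0.2 of a whole number. The fit was made to raise this share, so setting it beside the 40.0% of evenly spread values is no check. By this fit a transcript of 1500 bases at FPKM 10 would have 1320 fragments in stage 2 and 884 in stage 3. That would be a counting error of 2.75% and 3.36%, if the libraries were not scaled to each other. This covers counting only, since the spread between siliques was not measured.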

How the data were processed

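RNA from whole siliques of 4 stages was sequenced, 1 library per stage. Per the labels' protocols, RNA was taken up in Trizol, treated with TURBO DNase and cleaned on RNeasy columns, and non-stranded TruSeq RNA V2 libraries were read on an Illumina HiSeq, so a gene and its antisense partner cannot be told apart. The deposited values are FPKM per Cufflinks locus. TAIR10 is the build, and Cuffdiff, Cufflinks and TopHat are the tools, given in the submitters' processing notes, without versions. Each file has 30915 rows, and rows that share a locus identifier and its value were counted once, which left 29971 loci. Counts were not used here, so no count test was made.

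From the FPKM, the difference of log2(FPKM + 1) between stage 3 and stage 2 was computed for loci above 0 in both and at least 10 in the higher, and called at 1 or more. Loci, members and the 27 gene lists were chosen with earlier results of these data known. Stage ages were taken from the labels' stage field, with which the growth text conflicts. Genes named are the 15 largest increases and 15 largest decreases, the 10 most abundant in each library, and list members with high FPKM or large differences; product-name groups and genes named with them, with the regulators or with the loci listed at 0 were picked after their values were seen. Of the list entries, 44 have no row and were not analysed here. Symbols and products came from RefSeq, with which 28733 single-gene loci matched by identifier. Calculations used Python 3.11.15, numpy 2.4.6, pandas 2.3.3 and matplotlib 3.10.9, and were tested on simulated data. Equal sums, a median ratio, other pseudocounts and other FPKM limits were tried as alternatives.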

Additional observations from a re-analysis of the deposited data

How the results depend on the processing

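No paired analysis was possible because each stage had 1 library, and for the same reason no replicate could be left out. Against 1734 higher and 1149 lower loci, a 4-fold limit gave 748 and 432. The lower count was 2083 both with a minimum of FPKM 1 and with none, 675 with a minimum of FPKM 25 (chosen after seeing the data), and 2148 with equal FPKM sums over loci of 300 bases or more. Those sums brought the list medians to 0.74 for abscisic acid, past -1 for cell cycle (-1.26) and for photosynthesis (-1.31). Without an FPKM minimum the abscisic acid median was 0.92. The jasmonate median was within the limit with equal sums over all loci (-0.92), with no minimum (-0.97) and with a pseudocount of 5 (-0.95). The maturation regulators had a median of 1.51 with a minimum of FPKM 25. No list median past the limit changed sign, and none of the 30 genes named for size did. A pseudocount cannot change a sign, and the single called loci were not checked for it. Small medians within the limit changed sign, such as raffinose (0.72, and -0.15 with sums over the longer loci), the reference genes (0.15 and -0.25) and mucilage (0.16 and -0.25). With a minimum of FPKM 25 the median was -0.12 for cell cycle and 0.08 for endosperm. The causes were not tested. With 1 library per stage, the spread between siliques is unknown and sets a limit that depth does not.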
